A study of Mus musculus with 20 samples.

Results

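Cytotoxic lymphocytes, chiefly natural killer (NK) cells and killer T cells, were described here through 10 genes, taken by gene symbol from the annotation of the array: Ccl5, Gzma, Gzmb, Prf1, Nkg7, Klrd1, Klrk1, Il2rb, Tbx21 and Eomes. Of these 10 genes, 9 had a probe, 14 probes in all, and the brightest probe over the arrays stood for each gene. Gzma had no probe under its symbol and is not analysed here. After a filter on dim probes, 6 of the 10 were among the 12710 genes tested.

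Illumina expression arrays, 20 in number, had been run on RNA from mice to compare normal thymus, grafted thymus in which T cell production continued on its own, termed autonomous, and a leukaemia of T cells (T-ALL, acute lymphoblastic). The labels gave 3 T-ALL arrays marked Rag-, a mark they do not explain, 7 other T-ALL arrays and 4 arrays of thymus grafts at 10 weeks, all from an F1 cross of WB with B6/Ly5.1. They also gave 2 arrays of total splenocytes of the WB host, and 2 of total splenocytes and 2 of total thymocytes of wild-type C57BL/6 mice. The sources used here do not give the genotype of the hosts, the make-up of the leukaemic clones or any pooling of mice, and strain differs along with label wherever a wild-type array is set against a graft, a T-ALL or a host array. All spleen and wild-type thymus arrays were on chip 4 and all graft and T-ALL arrays on chips 1 to 3, so that label, strain and chip cannot be told apart where T-ALL or grafts are set against wild-type thymus. Nothing in the labels says that arrays of 1 label came from separate mice, so a p-value reflects array-to-array spread that could in part be technical. All values are the log2 normalized intensities deposited by the authors, and a probe was taken as above background over 7.12, a level 3 SD above the mode of all values (6.78, SD 0.113).

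Killer lymphocytes store perforin and granzymes in granules. Perforin opens the membrane of a target cell, granzymes enter and start its death, and Nkg7 is a granule membrane protein that takes part in their release. Their surface lectin receptors, such as Klrd1 (CD94) and Klrk1 (NKG2D), read ligands on the target, Il2rb carries the survival signal of interleukin-15, and the T-box factors Tbx21 and Eomes direct the programme. In the thymus most cells are immature CD4/CD8 double-positive thymocytes, which are not cytotoxic. RNA was bulk, so fewer cells of a type and less RNA per cell cannot be told apart.

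The 250 bases before the gene start are shown for Nkg7 and Prf1, 2 granule genes above background on all 20 arrays by their brightest probes. By those probes the genes followed different patterns across the arrays, whereas a dimmer Prf1 probe had r = 0.59 with Nkg7. The sequences are from RefSeq, build GRCm38.p6, both on the plus strand, at chr7:43436888-43437137 for Nkg7 and chr10:61297586-61297835 for Prf1. Capitals mark matches, on either strand, to a T-box motif (AGGTGTGA, or TCACACCT on the other strand) and to a Runx motif (TGTGGT, or ACCACA on the other strand), which share no bases here.
Nkg7: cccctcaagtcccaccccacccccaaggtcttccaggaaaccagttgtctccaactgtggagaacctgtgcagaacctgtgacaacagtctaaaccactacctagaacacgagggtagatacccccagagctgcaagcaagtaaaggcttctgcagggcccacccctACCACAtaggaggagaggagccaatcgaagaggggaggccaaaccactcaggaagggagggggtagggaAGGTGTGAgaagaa
Prf1: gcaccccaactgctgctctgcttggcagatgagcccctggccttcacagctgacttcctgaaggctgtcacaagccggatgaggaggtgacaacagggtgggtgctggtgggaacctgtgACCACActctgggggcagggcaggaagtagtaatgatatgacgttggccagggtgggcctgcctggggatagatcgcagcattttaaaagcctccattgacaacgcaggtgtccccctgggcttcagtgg
The T-box letters stood 14 bases before the start of Nkg7, and the Runx letters 83 bases before it and 130 bases before the start of Prf1. Of the 10 genes, 7 had a promoter entry. The T-box motif was in 1 of these 7 (Nkg7) and in 1.12% of 32851 promoters of the same length. The Runx motif was in 5 of 7 (Klrk1, Nkg7, Prf1, Gzma and Gzmb) and in 14% of promoters. A match describes letters and is not a measured binding site.

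On several arrays the levels of cell type lists were not those usual for the tissue that the label names. The reason was not tested, and values from these arrays are those of arrays carrying the label. Over 11 measured genes of the double-positive thymocyte list, the host spleen arrays averaged 11.48 and 11.30, wild-type spleen 3 averaged 10.48 and wild-type spleen 1 averaged 8.63, while wild-type thymus 1 and 3 averaged 7.87 and 9.94. The granulocyte list averaged 14.25 on wild-type spleen 1 and 14.04 on wild-type thymus 1, the highest of all arrays. B cell genes, which a spleen should hold, averaged at most 8.94 on any array. Some NK genes were at or near background throughout. Ncr1, the NK activating receptor NKp46, lay between 6.50 and 6.86, and Klra4 between 6.63 and 7.03. Neither was above background on any of the 20 arrays, nor were Klrc1 and Klrc2, the NKG2 partners of Klrd1. Klrb1c (NK1.1) was dim but above background on 11 of 20 arrays, reaching 7.44 on graft 2. Klre1 was above it on 2 arrays, reaching 7.32 on T-ALL 5. Klrd1 and Tyrobp, also named as NK cell markers, went the other way. Klrd1 was above background on 8 of 20 arrays, reaching 9.59 on graft 2, and Tyrobp reached 11.61 on wild-type thymus 1.

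**Figure D1:**
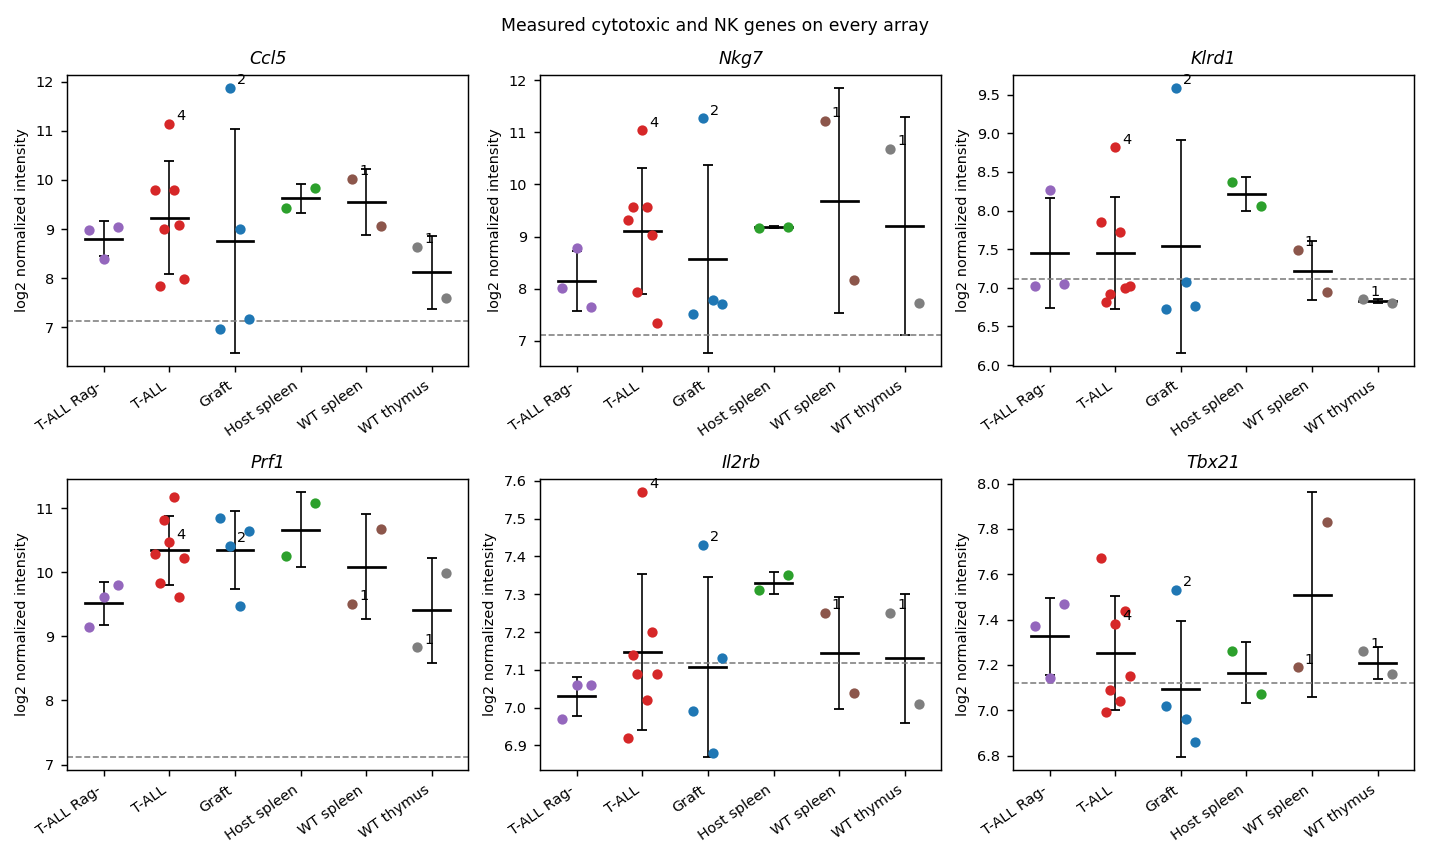
Each panel shows 1 gene, with a point for each array, grouped by label along the horizontal axis, and the log2 normalized intensity on the vertical axis. Black bars are label means with SD, the dashed line is the background level of 7.12, and numbers name graft 2, T-ALL 4, wild-type spleen 1 and wild-type thymus 1. T-ALL 4 is the highest T-ALL array for 4 of the 6 genes and graft 2 the highest graft for 5 of 6.

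Of the granule genes among the 10, Nkg7 had a wider range than Prf1 and Gzmb both on T-ALL and on grafts. It stood at 8.01, 8.78 and 7.64 on Rag- T-ALL 1 to 3, ran from 7.34 to 11.04 with a median of 9.31 on the other 7 T-ALL arrays, and stood at 7.52, 11.27, 7.79 and 7.71 on grafts 1 to 4. It stood at 9.17 and 9.19 on host spleen 4 and 5, at 11.22 and 8.16 on wild-type spleen 1 and 3, and at 10.68 and 7.72 on wild-type thymus 1 and 3. Graft 2, wild-type spleen 1, T-ALL 4 and wild-type thymus 1 were thus the 4 arrays above 10, each from a different label, and every label that held one of them overlapped with the others. The lowest T-ALL array was T-ALL 7, and the highest after T-ALL 4 were T-ALL 2 and T-ALL 5, both at 9.56.

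Prf1, perforin itself, was bright on all 20 arrays by its brighter probe and did not follow Nkg7. It stood at 9.14, 9.61 and 9.80 on Rag- T-ALL 1 to 3, ran from 9.61 to 11.17 with a median of 10.29 on the 7 T-ALL arrays, and stood at 10.84, 10.41, 9.47 and 10.65 on grafts 1 to 4. It stood at 10.25 and 11.08 on host spleen 4 and 5, at 9.51 and 10.67 on wild-type spleen 1 and 3, and at 8.83 and 9.99 on wild-type thymus 1 and 3. The highest array was T-ALL 5 and the lowest wild-type thymus 1, while graft 2 and T-ALL 4 lay within the range of the others in their labels.

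The 2 Prf1 probes disagreed. The dimmer probe ran from 6.91 on T-ALL 3 to 7.77 on T-ALL 4, next to 7.76 on graft 2, which are also among the 4 highest arrays for Nkg7. On the other arrays of those 4 it stood at 7.47 (wild-type spleen 1) and 6.96 (wild-type thymus 1, below background). T-ALL 3 was the second highest T-ALL array by the brighter probe (10.81). Across the 20 arrays the probes had r = 0.31, the brighter probe had r = -0.13 with Nkg7 and the dimmer probe had r = 0.59 with it. The brighter probe had r = 0.75 with the mean of the double-positive thymocyte list, r = 0.73 with that of the T cell receptor list and r = -0.74 with that of the macrophage list. These correlations describe 20 arrays that share quantile normalization and, within a label, their source, and carry no test. The level that Prf1 is given therefore depends on the probe, and which probe follows perforin mRNA was not tested.

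**Figure D2:**
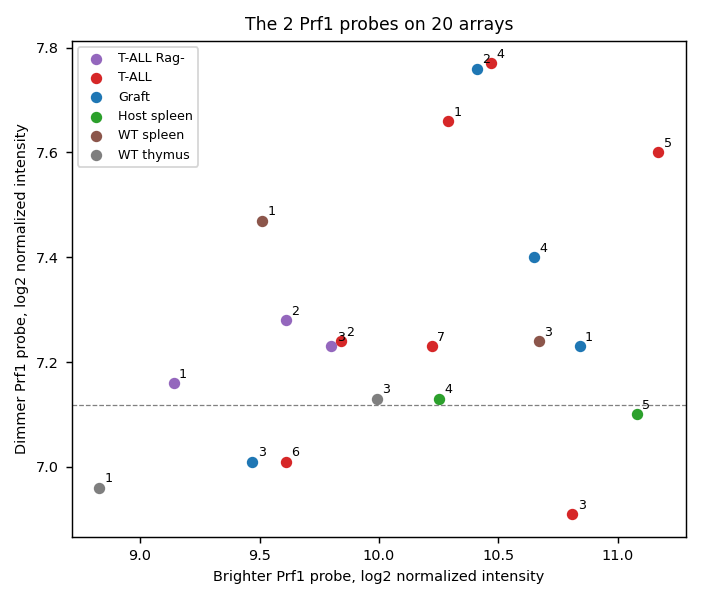
Each point is 1 of the 20 arrays, numbered within its label, with the log2 normalized intensity of the brighter Prf1 probe on the horizontal axis and that of the dimmer probe on the vertical axis; the dashed line is background (7.12). T-ALL 4 (7.77) and graft 2 (7.76) are at the top by the dimmer probe and in the middle by the brighter one.

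Gzmb, the granzyme that starts apoptosis in target cells, lay between 6.55 and 6.86 and was above background on 0 of 20 arrays. Of the related genes outside the 10, Gzmm, a further granzyme, was low (7.96 on T-ALL 4 and 7.97 on graft 2, the highest of their labels), and Gzmk reached 7.43 on T-ALL 4. Ctsw, a cathepsin of killer cell granules, was brighter. It ran from 7.65 to 8.30 on the 3 Rag- T-ALL arrays, from 7.37 to 11.37 on the 7 T-ALL arrays and from 7.51 to 11.78 on the 4 grafts, with T-ALL 4 and graft 2 again at the top. On wild-type thymus 1, where Nkg7 stood at 10.68, Ctsw was at 6.99, below background.

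Ccl5, a chemokine that memory and killer T cells store and release, was above background on 19 of 20 arrays. It stood at 8.98, 8.39 and 9.05 on Rag- T-ALL 1 to 3, ran from 7.84 to 11.15 with a median of 9.08 on the 7 T-ALL arrays, and stood at 6.97, 11.88, 9.01 and 7.16 on grafts 1 to 4. It stood at 9.42 and 9.83 on host spleen 4 and 5, at 10.03 and 9.07 on wild-type spleen 1 and 3, and at 8.64 and 7.59 on wild-type thymus 1 and 3. Graft 2 and T-ALL 4 were the only arrays above 11, and graft 1 was the only one below background. Of the other chemokines made by such cells, Ccl4 and Xcl1 were, like Ccl5, highest within their labels on graft 2 and T-ALL 4. They differed on the other grafts. Ccl4 stood at 9.55, 9.60, 7.25 and 9.36 on grafts 1 to 4, so that it was low on graft 3 alone. Xcl1 was at 8.50 on graft 2 and at most 7.02 on the other grafts. On T-ALL 4, Ccl4 was at 8.86 and Xcl1 at 8.57. Across the 20 arrays Xcl1 had r = 0.81 with Ccl5.

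Of the receptors, Klrd1 was above background on 8 of 20 arrays. It stood at 7.02, 8.27 and 7.05 on Rag- T-ALL 1 to 3, ran from 6.82 to 8.82 with a median of 7.03 on the 7 T-ALL arrays, and stood at 6.72, 9.59, 7.07 and 6.77 on grafts 1 to 4. It stood at 8.37 and 8.06 on host spleen 4 and 5, at 7.49 and 6.95 on wild-type spleen 1 and 3, and at 6.85 and 6.81 on wild-type thymus 1 and 3. Within the Rag- label it was array 2 that carried Klrd1, and among the T-ALL arrays T-ALL 4, 1 and 5 (8.82, 7.85 and 7.72). Klrk1, whose brightest probe of 4 lay between 6.72 and 7.08, was above background on 0 of 20 arrays by that probe. A second Klrk1 probe reached 7.17, on T-ALL 1.

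Il2rb, the beta chain of the interleukin-2 and interleukin-15 receptors, was dim. It stood at 6.97, 7.06 and 7.06 on Rag- T-ALL 1 to 3, none above background, ran from 6.92 to 7.57 with a median of 7.09 on the 7 T-ALL arrays, and stood at 6.99, 7.43, 6.88 and 7.13 on grafts 1 to 4. It stood at 7.31 and 7.35 on host spleen 4 and 5, at 7.25 and 7.04 on wild-type spleen 1 and 3, and at 7.25 and 7.01 on wild-type thymus 1 and 3. T-ALL 4 and graft 2 were again the highest of the 20. The adaptor Hcst (DAP10), which couples NKG2D to signalling inside the cell, was at 11.11 on T-ALL 4 and 11.62 on graft 2, the highest of their labels, though no probe detected Klrk1 there.

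Of the transcription factors, Tbx21 (T-bet) was above background on 13 of 20 arrays and never bright. It stood at 7.37, 7.14 and 7.47 on Rag- T-ALL 1 to 3, ran from 6.99 to 7.67 with a median of 7.15 on the 7 T-ALL arrays, and stood at 7.02, 7.53, 6.96 and 6.86 on grafts 1 to 4. It stood at 7.26 and 7.07 on host spleen 4 and 5, at 7.19 and 7.83 on wild-type spleen 1 and 3, and at 7.26 and 7.16 on wild-type thymus 1 and 3. The highest arrays were wild-type spleen 3 and T-ALL 1, neither of which was the highest of its label for Ccl5, Nkg7 or Klrd1. Graft 2 and wild-type thymus 1 were the highest of their labels for all 4 genes, though Klrd1 was below background on both wild-type thymus arrays. Eomes, by the brighter of 2 probes, lay between 6.65 and 6.90 and was above background on 0 of 20 arrays.

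T-ALL 4 was the highest of 7 for Ccl5, Nkg7, Klrd1 and Il2rb, 4 of the 6 genes, and over all 12710 genes it was the highest for 12.7%. Graft 2 was the highest graft for Ccl5, Nkg7, Klrd1, Il2rb and Tbx21, 5 of the 6, and for 24.4% of all genes. With values under background set to 7.12, the mean of the 6 genes ranked first of the 20 arrays on graft 2 and next on T-ALL 4, and was at most 8.78 on any other array. The lowest mean, 7.78, was that of wild-type thymus 3, followed by grafts 1 and 4. Wild-type spleen 1 exceeded wild-type spleen 3 for 4 of 6 genes, against 46.1% of all genes. Wild-type thymus 1 exceeded wild-type thymus 3 for 5 of 6, against 43.9% of all genes. For Klrd1 both wild-type thymus values (6.85 and 6.81) were below background.

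Other transcripts moved with graft 2 and T-ALL 4. Among genes of mature T cells, named after their values were seen, Itgae (CD103) was at 9.25 on T-ALL 4 and 10.54 on graft 2, and Ccr7, a lymph node homing receptor, at 8.04 on T-ALL 4 and 9.55 on graft 2, the highest of their labels. Klf2, a factor of circulating T cells, was at 11.43 on graft 2, the highest of all arrays, but at 9.43 on T-ALL 4, below T-ALL 5 (9.81) and the 3 Rag- arrays (9.82, 10.24 and 10.23). A list of kidney tubule genes, added after it was seen that Fxyd2, Inmt and Fmo1 followed the set, was above background for 8 of 8 measured genes on T-ALL 4 and on graft 2. Summed over background in linear units, it came to 2767 on T-ALL 4 and 6606 on graft 2. T-ALL 1 and T-ALL 5 had 7 and 6 of the 8 genes above background and sums of 605 and 481, against 110 to 165 on T-ALL 2, 3, 6 and 7. T-ALL 4, 1 and 5 were also the T-ALL arrays with Klrd1 above background. These arrays had the lowest erythroid list means of the label (9.43, 9.30 and 9.39, against 11.32 or more). Their granulocyte list means were likewise the lowest (7.045, 6.945 and 6.952, against 9.37 or more). On graft 2 the erythroid and granulocyte lists averaged 10.99 and 10.67. On Rag- T-ALL 2, Klrd1 stood at 8.27 with a kidney tubule sum of 126. The range of the kidney tubule sum was 109 to 135 on Rag- T-ALL, 110 to 2767 on T-ALL, 93 to 6606 on grafts, 244 to 313 on host spleens, then 101 to 214 on spleens and 54 to 95 on thymus of the wild type. The MHC class II list, also added, averaged 10.95 on both arrays and up to 11.13 elsewhere. The T cell receptor list was bright on both arrays, averaging 12.07 on T-ALL 4 and 12.62 on graft 2, but did not set them apart. It averaged 12.36 on T-ALL 1, and 12.94 and 12.96 on grafts 1 and 4. Of the NK genes, Ncr1, Klra4, Klrc1 and Klrc2 were not above background there, whereas Klrd1 and Tyrobp were (Tyrobp at 8.42 on T-ALL 4 and 8.87 on graft 2). Klrb1c was above it on both (7.44 on graft 2 and 7.13 on T-ALL 4), and Klre1 on graft 2 (7.16) but not on T-ALL 4 (7.11). Of 12 measured genes of an NK receptor list, 10 were above background on graft 2 (grafts 2 to 10) and 8 on T-ALL 4 (T-ALL 4 to 8). The part of kidney tubule, mature T cell, MHC class II, erythroid and granulocyte transcripts in the levels of the cytotoxic genes was not tested.

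**Figure D3:**
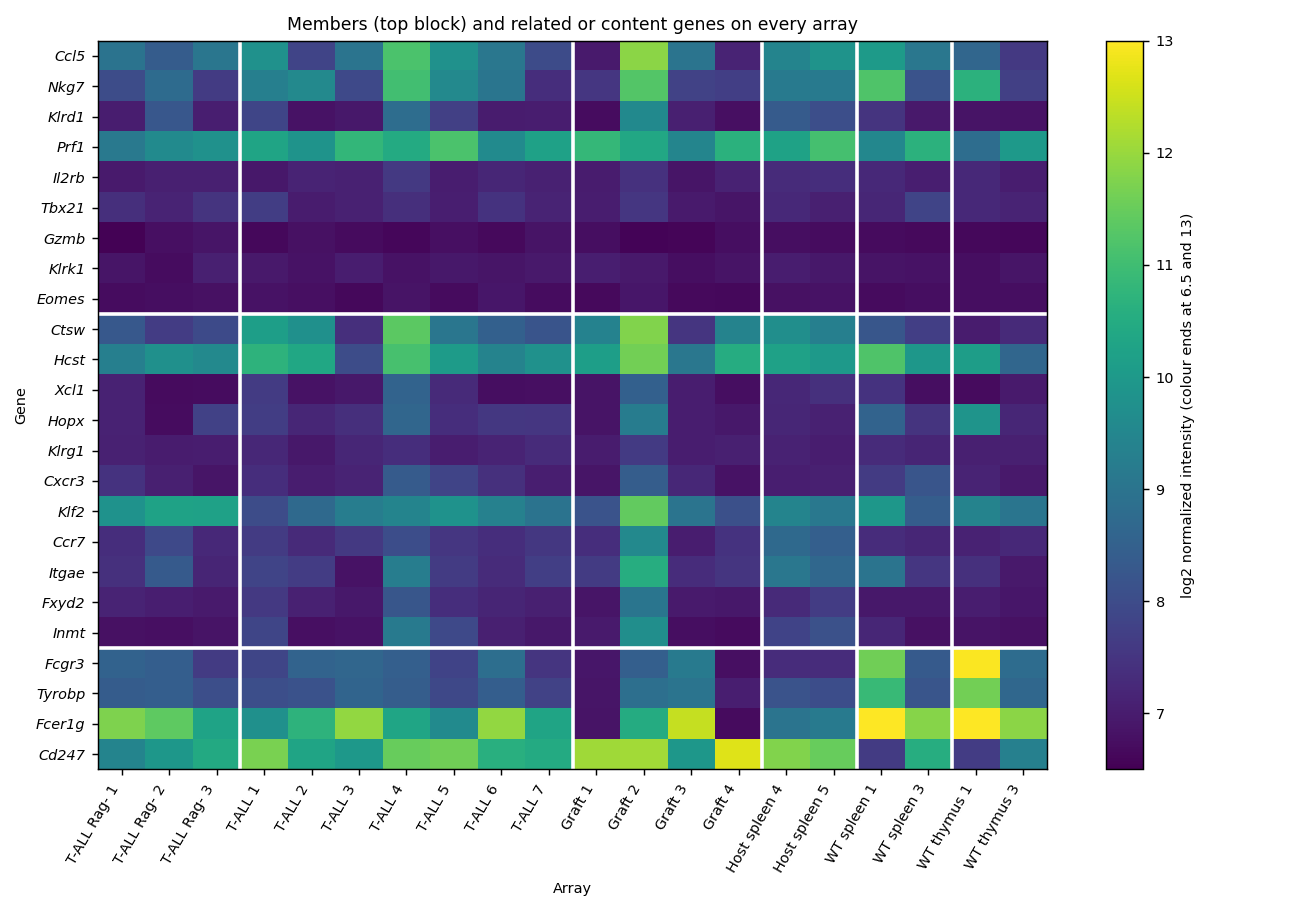
Colour gives the log2 normalized intensity of 24 genes (rows) on the 20 arrays (columns, grouped by label), on a scale of dark (low) to bright (high). Ccl5, Nkg7 and Klrd1 brighten on T-ALL 4 (11.15, 11.04 and 8.82) and graft 2 (11.88, 11.27 and 9.59) together with Ctsw, Xcl1, Itgae, Fxyd2 and Inmt, whereas on wild-type thymus 1 Nkg7 (10.68) is bright with Fcgr3 and Tyrobp and Ctsw (6.99) is not.

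Wild-type spleen 1 and wild-type thymus 1 were high for Nkg7 together with granulocyte and macrophage lists. The macrophage list averaged 12.21 on wild-type spleen 1 and 13.09 on wild-type thymus 1, and the T cell receptor list 10.19 and 8.95, the lowest of all arrays. Fcer1g, an adaptor shared by Fc and NK receptors, stood at 13.95 and 14.57. Summed over background, the granulocyte list came to 3534 to 12696 on Rag- T-ALL, 176 to 56323 on T-ALL, 64 to 37721 on grafts, 316 to 588 on host spleens, 70454 to 235751 on spleens and 20877 to 211006 on thymus of the wild type. The granulocyte sum was 306 on T-ALL 4 and 37721 on graft 2, the highest of the grafts. Wild-type spleen 1 had the highest MHC class II mean of all arrays (11.13). Klrd1 was at 7.49 on wild-type spleen 1 and below background on wild-type thymus 1 (6.85). The part of granulocyte and macrophage transcripts in Nkg7 on any of these arrays was not tested.

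Across the 20 arrays Ccl5 had r = 0.72 with Nkg7, r = 0.76 with Klrd1 and r = 0.72 with Il2rb. Without graft 2 and T-ALL 4 these were 0.54, 0.47 and 0.44 over 18 arrays. Nkg7 and Klrd1 had r = 0.64, which was 0.37 without graft 2 and T-ALL 4 and 0.85 without wild-type thymus 1 and wild-type spleen 1. Tbx21 had at most r = 0.44 with any other of the measured genes, with Ccl5.

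**Figure D4:**
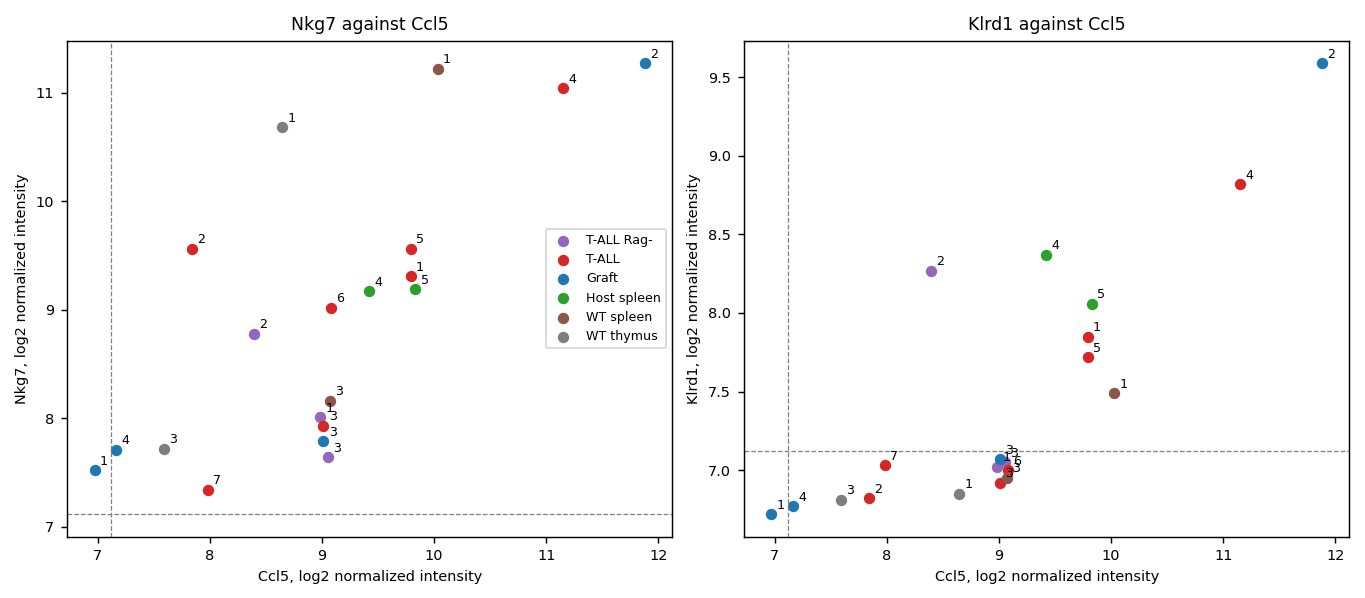
Nkg7 (left) and Klrd1 (right) are plotted against Ccl5 as log2 normalized intensities, with a point for each of 20 arrays numbered within its label and dashed lines at background (7.12). Graft 2 and T-ALL 4 are at the upper right in both panels, while wild-type spleen 1 and wild-type thymus 1 are high for Nkg7 (11.22 and 10.68) and not for Klrd1 (7.49 and 6.85).

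The 10 genes whose levels were most like the mean of the 6 measured genes, by Pearson's r over 20 arrays, were Inmt (0.90), Ccr6 and Xcl1 (0.88 each), Fxyd2, Itgae, 9330175E14Rik, Sdhaf4, Fmo1, Mreg and Tesc (0.83). Without graft 2 and T-ALL 4 their r ran from 0.56 for Tesc to 0.76 for Inmt. Taken singly, which was decided after values were seen, Prf1 by its brighter probe was most like Erich5 (r = 0.93, and 0.93 without graft 2 and T-ALL 4), Nkg7 most like Capg (0.85), Klrd1 most like Itgae (0.92), and Ccl5 most like H2-Eb1 (0.82).

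T-ALL was compared with thymus grafts first. Neither Ccl5, Nkg7, Klrd1, Prf1, Il2rb nor Tbx21 passed the test: 0 of 6 were called by limma at a Benjamini-Hochberg adjusted p under 0.05, against 0.323% of all genes, and 0 of 6 had an unadjusted p under 0.05, against 16.9% of all genes. Ccl5 averaged 9.23 ± 1.15 on T-ALL (SD, n = 7) and 8.76 ± 2.28 on grafts (n = 4), a log2 difference (T-ALL minus graft) of 0.48 with a 95% interval of -1.12 to 2.08 (limma adjusted p = 0.812). Nkg7 averaged 9.11 ± 1.20 on T-ALL and 8.57 ± 1.80 on grafts, a difference of 0.54 with an interval of -1.17 to 2.24 (limma adjusted p = 0.800). The intervals of Ccl5 and Nkg7 allow a change of several-fold in either direction, so these arrays could not show a smaller one.

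For the other 4 genes the differences of T-ALL from grafts lay between -0.09 (Klrd1) and 0.16 (Tbx21), and Prf1 was at 10.34 on both labels. Of the 6 genes 5 were higher in T-ALL, with a median difference of 0.10 against 0.01 over all genes, and 0 of 6 had labels that did not overlap (2.34% of all genes). The direction changed with the chip. On chip 1, which held graft 2, all 6 were lower in T-ALL (Ccl5 -0.55, Nkg7 -0.46, Klrd1 -0.96), and on chip 2, which held T-ALL 4, all 6 were higher (1.92, 2.12 and 0.93), none called on either chip. Without graft 2 the difference of Ccl5 was 1.52 and that of Nkg7 1.44 (limma adjusted p = 0.217 and 0.367), and without both graft 2 and T-ALL 4 they were 1.20 and 1.11.

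Rag- T-ALL was set against the other T-ALL arrays. Again 0 of 6 genes were called by limma, with 0% of all genes called and 652 of 12710 at an unadjusted p under 0.05, and 0 of 6 had labels that did not overlap (2.05% of genes). Prf1 averaged 9.52 ± 0.34 on Rag- T-ALL (n = 3) and 10.34 ± 0.54 on T-ALL (n = 7), a difference of -0.83 with an interval of -1.63 to -0.03. It was the 1 gene of the 6 with an unadjusted limma p under 0.05 (0.0429, adjusted p = 0.901), as were 5.13% of all genes, and by the dimmer probe the difference was -0.12.

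Nkg7 averaged 8.14 ± 0.58 on Rag- T-ALL and 9.11 ± 1.20 on T-ALL, a difference of -0.97 with an interval of -2.85 to 0.92, and Ccl5 differed by -0.43. Without T-ALL 4 the Nkg7 and Ccl5 differences were -0.64 and -0.11. With chip as a block, which rests on T-ALL 7 as the only T-ALL array on the chip of the Rag- arrays, they were 0.80 and 0.83, so the direction depended on that array. Il2rb was at background on all 3 Rag- arrays and above it on 3 of 7 T-ALL arrays. Its mean on T-ALL was 1.02-fold above the background level (means of 7.03 on Rag- T-ALL and 7.15 on T-ALL, log2 interval -0.38 to 0.14, limma adjusted p = 0.925). Klrd1 averaged 7.45 on both labels, and Tbx21 7.33 on Rag- T-ALL and 7.25 on T-ALL.

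Thymus grafts were set against the wild-type thymus label. Of the 6 genes 0 were called by limma (0.0787% of all genes), 0 had an unadjusted p under 0.05 (20.3% of genes) and 0 did not overlap (18.7% of genes). Prf1 averaged 10.34 ± 0.61 on grafts (n = 4) and 9.41 ± 0.82 on wild-type thymus (n = 2), a difference of 0.93 with an interval of -0.07 to 1.93 (limma adjusted p = 0.278). Without wild-type thymus 1 it was 0.35. Nkg7 differed by -0.63, and by 0.85 without wild-type thymus 1, and Ccl5 by 0.64, and by -0.40 without graft 2. Klrd1, below background on both wild-type thymus arrays (mean 6.83), averaged 7.54 on grafts, with 1 of 4 above background. That was at least 1.34-fold higher by means, with a log2 interval of -0.70 to 2.12 (limma adjusted p = 0.590). The measured log2 difference of Klrd1 was 0.02 without graft 2. Il2rb and Tbx21 differed by -0.02 and -0.12.

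T-ALL against the wild-type thymus label also gave 0 of 6 called (0.0315% of all genes) and 0 of 6 that did not overlap (6.88%). Prf1 averaged 10.34 ± 0.54 on T-ALL (n = 7) and 9.41 ± 0.82 on wild-type thymus (n = 2), a difference of 0.93 with an interval of 0.01 to 1.86, the 1 gene of the 6 with an unadjusted limma p under 0.05 (0.0484, adjusted p = 0.350), as were 14.1% of all genes. Without wild-type thymus 1 it was 0.35, and by the dimmer probe 0.30. Ccl5 was higher on T-ALL by 1.12 with an interval of -0.93 to 3.17. Klrd1, above background on 3 of 7 T-ALL arrays, averaged 7.45 there and 6.83, below background, on wild-type thymus. That was at least 1.26-fold higher by means, with a log2 interval of -0.68 to 1.93 (limma adjusted p = 0.675). Nkg7 differed by -0.09, and by 1.39 without wild-type thymus 1, while Il2rb and Tbx21 differed by 0.02 and 0.04.

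Host spleen and wild-type spleen arrays differed in content, and 2.98% of all genes were called between them, yet 0 of the 6 genes were, nor had any an unadjusted limma p under 0.05, which 22.9% of all genes had. Klrd1 stood at 8.37 and 8.06 on host spleen and at 7.49 and 6.95 on wild-type spleen, a 1.99-fold higher mean on host spleen with a log2 interval of -0.63 to 2.62 (limma adjusted p = 0.476). Klrd1 and Il2rb, 2 of 6, did not overlap between these labels, which was so for 54.8% of all genes. Nkg7 differed by -0.51, by 1.02 without wild-type spleen 1 and by -2.04 without wild-type spleen 3. Averages of Prf1 were 10.67 on host spleen and 10.09 on wild-type spleen, and the differences of the other 3 genes lay between -0.34 (Tbx21) and 0.18 (Il2rb). Called genes of the lists in this comparison belonged to other cells: Themis, a thymocyte signalling protein, stood at 10.98 and 10.61 on host spleen and at 7.00 and 9.06 on wild-type spleen (limma adjusted p = 0.0294). The neutrophil genes Camp, Ltf and Retnlg were below background on host spleen and at 10.70 or more on wild-type spleen, and Siglech of plasmacytoid dendritic cells was higher on host spleen (mean 8.12, limma adjusted p = 0.0143).

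The wild-type spleen and wild-type thymus labels had 0% of genes called by limma (664 of 12710 at an unadjusted p under 0.05) and 0 of 6 of the cytotoxic genes at either threshold. Ccl5 stood at 10.03 and 9.07 on wild-type spleen and at 8.64 and 7.59 on wild-type thymus, a 2.70-fold higher mean on wild-type spleen with a log2 interval of -1.12 to 3.99 (limma adjusted p = 0.999). Ccl5 and Klrd1, 2 of 6, did not overlap, as did 21.6% of all genes. Klrd1, above background on 1 of 2 wild-type spleen arrays, averaged 7.22 there and 6.83, below background, on wild-type thymus. That was at least 1.07-fold higher by means, with a log2 interval of -1.24 to 2.02 (limma adjusted p = 0.999). All 6 genes had higher means on spleen, with a median difference of 0.44 against -0.01 over all genes. Nkg7 differed by 0.49, and by -1.04 without wild-type spleen 1, while Prf1, Tbx21 and Il2rb differed by 0.68, 0.30 and 0.01.

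**Figure D5:**
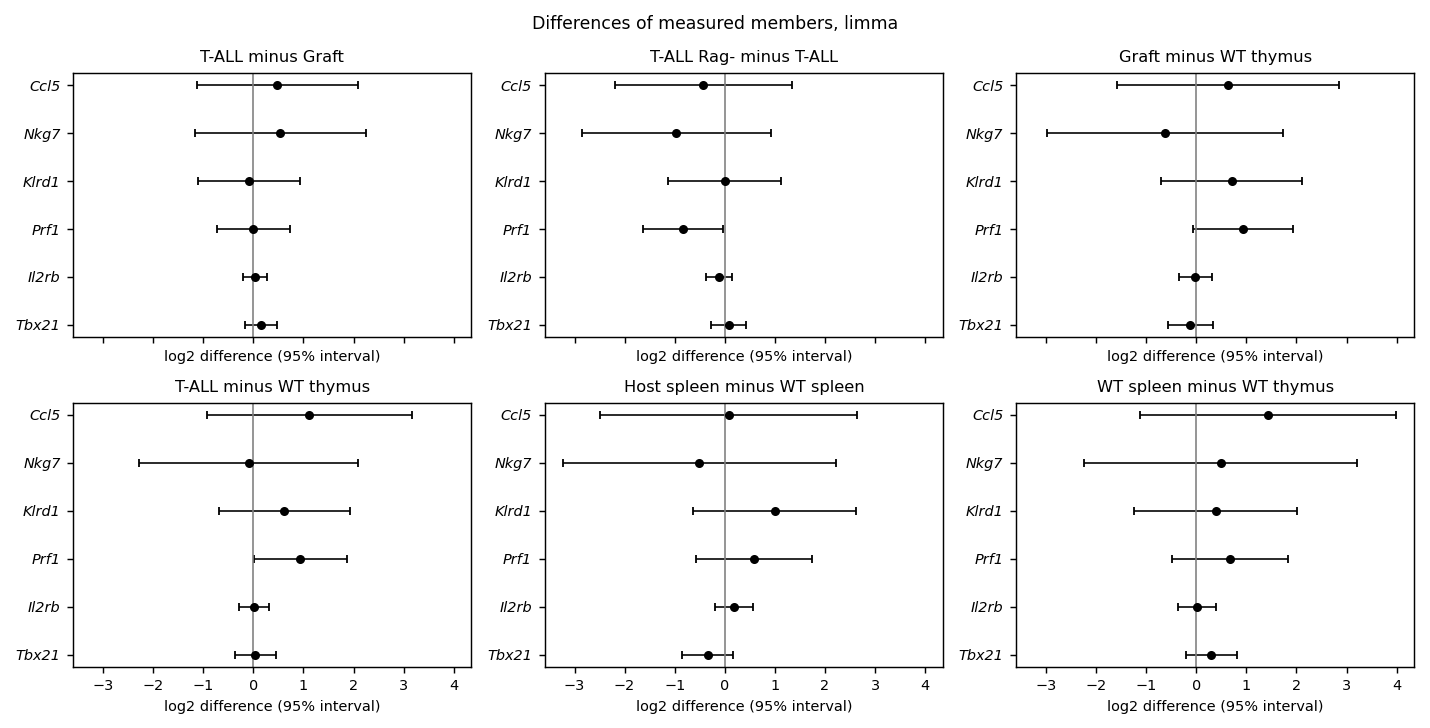
Each panel is 1 of the 6 comparisons and gives, for each of 6 genes, the log2 difference of the first label minus the second (points) with its 95% interval from limma (bars). Intervals of Ccl5 and Nkg7 span 0 in all 6 panels, and that of Prf1 is below 0 for Rag- T-ALL minus T-ALL (-1.63 to -0.03) and above 0 for T-ALL minus wild-type thymus (0.01 to 1.86).

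By label means the order for Ccl5 was host spleen and wild-type spleen, T-ALL (9.23), Rag- T-ALL (8.81), grafts (8.76) and wild-type thymus, and for Nkg7 it was wild-type spleen (9.69), wild-type thymus (9.20), host spleen (9.18), T-ALL (9.11), grafts (8.57) and Rag- T-ALL (8.14). Neighbours in both orders differed by less than the larger of their SDs.

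Around the 10 genes, 6 lists of partners held 83 genes, and 61 of these were measured: granule proteins and death ligands (10 of 13), NK receptors (12 of 22), receptor adaptors (9 of 11), effector cytokines (6 of 7), cytokine and chemokine receptors (13 of 14) and transcription factors (11 of 16). In each of the 6 comparisons limma called 0 of the 61. At an unadjusted p under 0.05 there were 2 for Rag- T-ALL against T-ALL (3.28%, against 5.13% of all genes), 7 for T-ALL against grafts (11.5%, against 16.9%), 20 for grafts against wild-type thymus (32.8%, against 20.3%), 18 for T-ALL against wild-type thymus (29.5%, against 14.1%), 5 for host against wild-type spleen (8.2%, against 22.9%) and 2 for wild-type spleen against thymus (3.28%, against 5.22%). Against wild-type thymus these went both ways, with 9 higher and 11 lower on grafts and 7 higher and 11 lower on T-ALL. In both, Cd247, Zap70 and Ctsw were among the higher. Fcer1g, Fcgr3 and Tyrobp, each highest of all arrays on wild-type thymus 1, were among the lower.

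Cd160, an Ig-family receptor of killer and innate-like lymphocytes, had the smallest p of these lists in T-ALL against grafts. It stood at 10.66, 10.98 and 10.38 on Rag- T-ALL 1 to 3, ran from 8.59 to 10.98 with a median of 9.66 on the 7 T-ALL arrays, and stood at 7.10, 8.63, 8.58 and 7.29 on grafts 1 to 4. The highest graft was just above the lowest T-ALL array, which was T-ALL 5. T-ALL averaged 9.63 ± 0.80 and grafts 7.90 ± 0.82, a difference of 1.73 that missed the threshold (interval 0.84 to 2.62, limma adjusted p = 0.0692). The highest arrays for Cd160 were Rag- T-ALL 2 and T-ALL 2, both at 10.98, where Klrd1 stood at 8.27 and 6.82, the highest of its label on Rag- T-ALL 2 and the lowest of its label on T-ALL 2.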

How the data were processed

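Log2 intensities of 46089 probes on 20 arrays were used as deposited by the authors. Per the labels, RNA was extracted with RNAzol B from cell suspensions or sorted cells and biotinylated with an Ambion MessageAmp kit. That the values are log2 and quantile normalized was read from the values, whose sorted lists differ by at most 0.01 between arrays; the sources used here do not name the software. Quantile normalization forces equal distributions, so a level is relative to the other genes of its array. The authors' other table, not normalized, has 20 columns that match no label, and none was used. The labels mark the T-ALL arrays as re-analysed.

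Probes with 1 symbol (35667) were named from the annotation table, 10422 had none, 0 had several, and 3273 symbols were updated. A gene was tested if a probe exceeded the background threshold on at least 2 arrays; its brightest probe stood for it. Means per label were estimated over 20 arrays in limma 3.58.1 under R 4.3.3 (14 residual degrees of freedom, intensity trend) and adjusted by Benjamini-Hochberg over 12710 genes within each of 6 comparisons at 0.05. "At least" folds set dim arrays to the threshold. They compare means and leave out the spread between arrays. The number of arrays limits precision. By rule the text names the 10 genes, whose 6 tested members are covered in every comparison, called or brightest genes of lists, genes of the granule, receptor and adaptor lists and the 10 most similar genes. The genes, lists and rules were chosen with earlier results of these data known. Itgae, Klf2, Ccr7, Ccl4, Hopx and Il18r1, and the kidney tubule, mature T cell and MHC class II lists, were picked after values were seen. Chip numbers come from the array barcodes in the labels. Alternatives covered background, scaling, filter, probe choice, moderation, array weights, chip, groups in the fit and each array left out.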

Additional observations from a re-analysis of the deposited data

Results flagged for a closer look

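Within the grafts (4 arrays) and T-ALL (7 arrays), 72 sets of values were searched for a highest or lowest array set apart by a wide gap. Of these sets 13 were flagged. The rule would flag about 1 in 20 sets of normally distributed values. That rate is no yardstick here, because part of the genes were picked for their values on these arrays. On T-ALL 4 these were Il2rb (7.57, next T-ALL array 7.20), Il18r1 (7.89), Hopx (8.64) and Itgae (9.25), all high. On graft 2 they were Nkg7 (11.27, next graft 7.79), Klrd1 (9.59, next 7.07), Klrg1 (7.61), Xcl1 (8.50), Hopx (9.24), Itgae (10.54), Fxyd2 (9.02) and Inmt (9.70), also high. Graft 3 was low for Ccl4 (7.25, next graft 9.36). Over all 12710 genes, T-ALL 4 was the highest T-ALL array by such a gap for 1.01% and graft 2 the highest graft for 1.58%. Of the flagged genes, Itgae, Ccl4, Hopx and Il18r1 were picked after values were seen, and Fxyd2 and Inmt because they followed the cytotoxic genes.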

How the results depend on the processing

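Under all alternatives limma called 0 of the 6 cytotoxic genes in every comparison; of 654 differences under alternatives, 64 had another sign than the one reported and 0 of these was called. Counts of all genes called moved more, and the cause was not tested. T-ALL against grafts gave 41 as reported, 16 without the intensity filter, 26 with the mean of probes, 19 with robust moderation, 3240 with array weights, 17 and 10 with chip as a random and a fixed block, 24 with only the 2 groups fitted, 5 on chip 1, 0 on chip 2, 224 with both T-ALL labels together, 5 without graft 2 and T-ALL 4 (chosen after seeing the data), and 2 to 1109 leaving out 1 array (1109 without graft 3, 2 without graft 1 or graft 4, 26 without graft 2, 8 without T-ALL 4). Rag- T-ALL against T-ALL gave 0, 22 with chip as a fixed block and 0 to 1 leaving out 1 array. Grafts against wild-type thymus gave 10, 3 after background subtraction, 6 with the mean of probes, 1 with array weights, 279 with chip as a random block, 2 with only these groups, 5 without graft 2 and T-ALL 4, and 1 to 1437 leaving out 1 array (1437 without wild-type thymus 3). T-ALL against wild-type thymus gave 4, 17 with chip as a random block, 0 after background subtraction, with array weights, with only these groups or without graft 2 and T-ALL 4, and 0 to 1313 leaving out 1 array (1313 without wild-type thymus 3). Host against wild-type spleen gave 379, 212 without the filter, 186 with array weights, 238 with chip as a random block, 7 with only these groups and 9 to 1542 leaving out 1 array (1542 without wild-type spleen 3). Wild-type spleen against thymus gave 0, 3 with the replicate block and 7 to 207 leaving out 1 array; the arrays of these labels share only a number, and same-numbered arrays deviated together with r = 0.68 over 2 pairs. Where leaving out 1 array left a label with 1, that array was assumed to vary like the others. Dim signals limit Il2rb, Tbx21 and Klrd1, which lie near background on most arrays, and Gzmb, Klrk1 and Eomes were never above it by their brightest probe.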
